A study of Rattus norvegicus with 12 samples.

Results

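The cytosolic ribosomal protein genes, which encode the structural proteins of the ribosome that translates nuclear-encoded messenger RNAs, were followed in rat hippocampus. Their probe sets were chosen by name. A member is a probe set with a single gene symbol in the array annotation that starts with Rpl or Rps followed by a digit, or by p and a digit, with the S6 kinases (Rps6k) left out. Of the 15923 probe sets on the array, 47 met the rule, for 43 genes. Of these, 41 probe sets of 39 genes lay among the 9520 probe sets tested. By symbol, 30 (Rpl) were counted for the large subunit and 11 (Rps) for the small subunit. The 30 include those of Rpl7l1, a paralog of Rpl7. A further 28 probe sets listed several symbols, all of the family, and were left out by the rule.

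The study asked how housing bears on the hippocampus of young rats after seizures. KA (not spelled out in the labels, taken here as the glutamate receptor agonist kainic acid) or PBS, phosphate-buffered saline, was given at postnatal day 20. PBS_isolated and KA_isolated rats then lived alone in individual cages for 10 days, and PBS_enriched and KA_enriched rats lived in an enriched setting with 8 animals to a large cage. Each of the 4 groups had 3 samples, and each sample was total RNA pooled from 3 to 4 animals (1 enriched PBS pool is labelled as 3 to 4 samples) on 1 array. Strain, sex, KA dose, the length of the enriched housing, litter and cage are not given in the sources used here, so n counts pools and p-values measure the spread between pools. No group had ordinary social housing, so enrichment, the shared cage and the lack of isolation cannot be told apart in a housing comparison. KA was compared with PBS within each housing, and the housings within each treatment.

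A ribosome has a small subunit, which reads the codons, and a large subunit, which forms the peptide bonds and holds the tunnel through which the new protein leaves. Most ribosomal proteins are needed in equal numbers, and in mammals their messenger RNAs begin with a 5′ terminal oligopyrimidine tract, a C followed by a run of C and T (U in the RNA), through which the mTOR pathway controls their translation. In neurons ribosomes and these messenger RNAs are found both in the cell body and in dendrites and axons. An array measures the RNA and not its translation, and in bulk tissue fewer cells of a type and less RNA per cell cannot be told apart.

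Windows around the annotated starts are shown for some of the genes named in the KA comparison below, most of which have a tract near the start. The sequences are from RefSeq (build GRCr8), 15 bases before and 15 after the start, 5′ to 3′ on the gene's strand. Capitals mark a tract of at least 5 pyrimidines counted from the first C that lies within 10 bases of the start. The pyrimidine run can begin earlier, as in Rpl13a, by 6 bases, and Rpl5, by 4, and bases before that C were not counted in the tract.
Rps15, chr7:10068101-10068130, minus strand: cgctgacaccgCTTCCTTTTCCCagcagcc
Rpl13a, chr1:104748899-104748928, minus strand: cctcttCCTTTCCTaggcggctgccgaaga
Rpl12, chr3:36661925-36661954, plus strand: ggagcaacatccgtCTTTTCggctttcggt
Rpl18, chr1:105325255-105325284, plus strand: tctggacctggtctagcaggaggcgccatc
Rpl4, chr8:73566462-73566491, plus strand: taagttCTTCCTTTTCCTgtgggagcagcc
Rpl5, chr14:1995211-1995240, minus strand: actctCTTTCCCacgtcgcttgcgtcctgg
Rpl39, chrX:121195882-121195911, minus strand: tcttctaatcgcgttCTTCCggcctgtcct
Rpl41, chr7:1563483-1563512, minus strand: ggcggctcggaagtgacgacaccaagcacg
The first 4 are the genes with the smallest p among those higher after KA in isolated rats, and 3 of them had a tract. The last 4 are the genes that were lower there, and 3 of them had one.

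Of the 43 member genes, 38 matched a RefSeq promoter (250 bases before to 50 after the start). A tract near the start was found in 27 of the 38 (71.1%) against 28.9% of all 33469 promoters, and the tracts, counted from that C, ran from 5 to 21 bases with a median of 9. In 14 of the 27 the pyrimidine run began before the counted C, and in 5 of them the earlier part held another C. At least 5 pyrimidines counted from a C exactly at the annotated start stood in 11 of the 38 genes (28.9%), against 2.63% of all promoters. That C need not be the first of its run, as in Rpl14, whose counted tract began at -8. Over the 300-base window, read on both strands, the SP1 core GGGCGG stood in 60.5% of the members and 33.1% of all promoters. The ETS core CCGGAAG stood in 23.7% and 8.75%, and in 2 members this match overlapped the tract. The YY1 core AAGATGGC stood in 10.5% and 3.17%, and the TATA box TATAAA in 15.8% and 14.2%. These are matches of letters, not measured binding sites.

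The arrays were alike, with array medians between 70.06 and 74.1. KA_enriched replicate 3 stood apart, with the lowest mean correlation to the other arrays (0.983), the highest beta-actin ratio of 3′ to 5′ signal (log2 0.856) and a value of 19.05 on the first principal component, where the others lay between -7.07 and 0.84. Member probe sets were bright: their mean signals ran from 64.3 to 3819, and 37 of the 41 were in the brightest 10% of all probe sets on the array. A signal depends on the probe as well as on the RNA, so no member is ranked against another by its level. Within groups the members' SD on the log2 scale had a median of 0.091, against 0.12 over all tested probe sets. The highest sample of a member stood above its lowest by between 1.12 times (Rpl21) and 1.77 times (Rpl37a).

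After KA in isolated rats most ribosomal protein genes had slightly higher signal, and none passed the test. Of the 41 members 37 were higher in KA_isolated than in PBS_isolated, against 47.7% of all tested probe sets. The median log2 difference was 0.079, or 5.64%, against -0.0053 over all tested probe sets, and the members ran from -0.061 to 0.27. All 11 small-subunit members were higher (median 0.056), as were 26 of the 30 large-subunit members (median 0.098). With limma and Benjamini-Hochberg adjustment 0 members were called, at a lowest adjusted p of 0.999, where 0.0105% of all probe sets were called. At an unadjusted p under 0.05 there were 4 members, all higher, against 4.31% of all probe sets. Without PBS_isolated replicate 3 there were 0, against 4.09% of all, and without KA_isolated replicate 3 there were 0, against 4.08%.

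**Figure D1:**
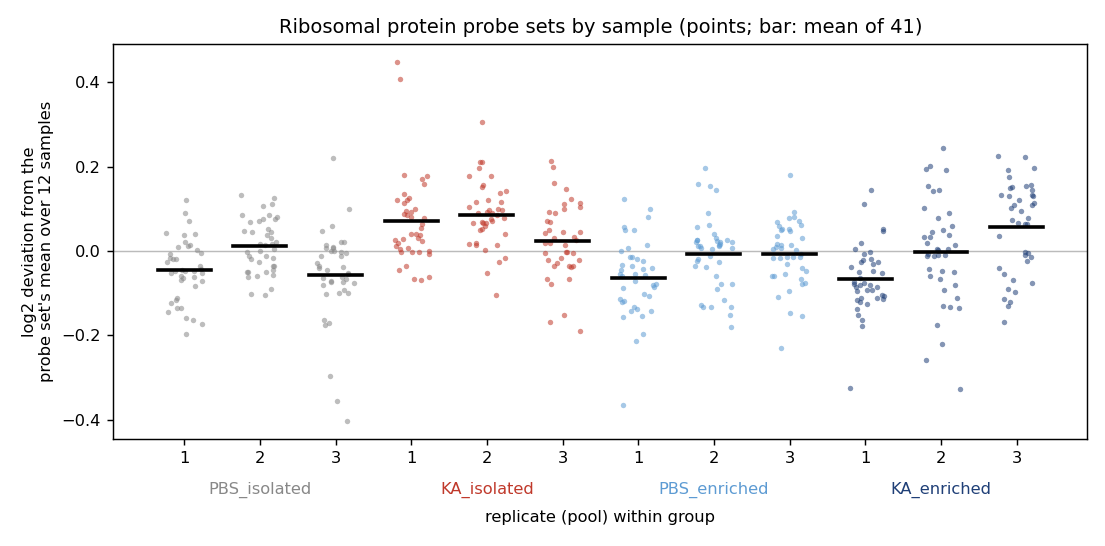
Log2 deviation of each of the 41 ribosomal protein probe sets from its own mean over the 12 samples (vertical axis) in each pool (horizontal axis), with a bar at the mean of the 41. The bars of the 3 KA_isolated pools lie at 0.070, 0.086 and 0.023, and that of KA_enriched replicate 3 at 0.056.

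The same pattern was seen pool by pool. The mean of the 41 members, each centred on its own mean over the samples, was -0.046, 0.013 and -0.057 (log2) in the PBS_isolated pools. It was 0.070, 0.086 and 0.023 in the KA_isolated pools, all above the highest PBS_isolated pool. It was -0.064, -0.0059 and -0.0073 in the PBS_enriched pools. In the KA_enriched pools it was -0.066, -0.0030 and 0.056, which spans all values of both PBS groups and the lowest KA_isolated pool. The group means were -0.030 ± 0.037 (SD, n = 3), 0.060 ± 0.033, -0.026 ± 0.033 and -0.0042 ± 0.061 in that order. Of the summed signal of an array the members took 1.93% ± 0.043 in PBS_isolated and 2.03% ± 0.045 in KA_isolated, and in enriched rats 1.92% ± 0.046 after PBS and 1.95% ± 0.082 after KA. These means over members are a description, with no test.

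KA_isolated had the highest mean of the 4 groups for 29 of the 41 members, against 23.6% of all tested probe sets. It had the lowest for 0, against 26.6%. PBS_isolated was highest for 3 members (23.9% of all), PBS_enriched for 2 (25.2%) and KA_enriched for 7 (27.3%). The lowest mean was in PBS_isolated for 16 members (22.8% of all), in PBS_enriched for 18 (22.6%) and in KA_enriched for 7 (27.9%). Over the alternative settings KA_isolated was highest for 56.1% to 73.2% of members. In 15 members every KA_isolated pool lay above every PBS_isolated pool, against 5.19% of all probe sets, and in 0 members below, against 5.62%. These were Rpl6, Rpl12, Rpl13a, Rpl14, Rpl18, Rpl19, Rpl22, Rpl23, Rpl26, Rpl34 and Rplp0 of the large subunit and Rps6, Rps15, Rps15a and Rps16 of the small subunit. Under quantile normalization of the arrays 33 members were higher, with a median of 0.051, and 8 did not overlap, against 5.36% of all probe sets. Without KA_isolated replicate 3 the number that did not overlap was 23, against 9.54% of all. It was 15 without KA_isolated replicate 2, against 9.55%, and 17 without KA_isolated replicate 1, against 10.0%. The cause was not tested.

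**Figure D2:**
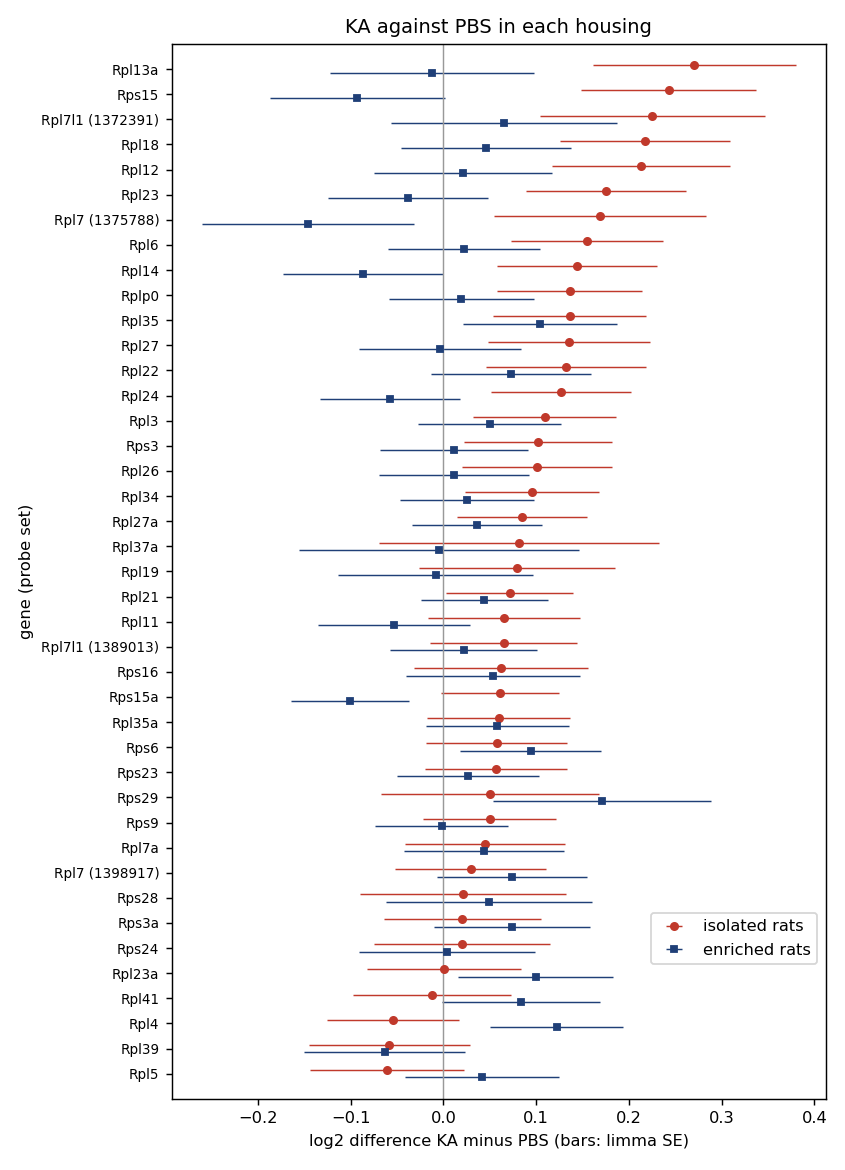
Log2 difference between KA and PBS (horizontal axis, bars are limma SE) for each of the 41 probe sets (vertical axis), in isolated rats (red circles) and enriched rats (blue squares). In isolated rats 37 circles lie right of 0, from -0.061 for Rpl5 to 0.27 for Rpl13a, and in enriched rats 28 squares do.

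Among the proteins of the large subunit, Rpl13a had the largest difference. Rpl13a is a large-subunit protein that, released from the ribosome in monocytes, also represses the translation of inflammatory messenger RNAs. Its signal was 1026, 1129 and 1088 in the PBS_isolated pools and 1502, 1144 and 1298 in the KA_isolated pools. All KA_isolated pools were higher, replicate 2 only narrowly, and the log2 difference was 0.27 (SE 0.11, unadjusted p = 0.028, adjusted p = 0.999). In the PBS_enriched pools Rpl13a signal was 1013, 1146 and 1078, and in the KA_enriched pools 1068, 942 and 1213, so the enriched groups overlapped each other and PBS_isolated.

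Rpl18, a structural protein of the large subunit, had 618, 679 and 602 in PBS_isolated and 772, 706 and 736 in KA_isolated. Its log2 difference was 0.22 (SE 0.092, unadjusted p = 0.034, adjusted p = 0.999). The enriched pools were at 653, 687 and 661 after PBS and at 662, 619 and 798 after KA. Of these, 4 lay within the range of PBS_isolated, and 1, KA_enriched replicate 3, was the highest of all 12. Rpl22, an RNA-binding protein of the large subunit with a close paralog, had 739, 812 and 831 in PBS_isolated and 863, 905 and 845 in KA_isolated, a log2 difference of 0.13 (SE 0.087). In the PBS_enriched pools it had 829, 837 and 867 and in the KA_enriched pools 778, 939 and 960.3, and these overlapped.

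The stalk of the large subunit recruits the elongation factors. Rplp0, the protein at its base that carries the P1 and P2 dimers, was at 1173, 1199 and 1208 in PBS_isolated and at 1296, 1319.5 and 1323 in KA_isolated. The pools of each group lay close together and the groups did not overlap, with a log2 difference of 0.14 (SE 0.078, adjusted p = 0.999). Rpl12, which lies beside Rplp0 at the stalk base, had 986, 992 and 831 in PBS_isolated and 1108, 1090.1 and 1055 in KA_isolated. Its log2 difference was 0.21 (SE 0.096, unadjusted p = 0.045, adjusted p = 0.999), and PBS_isolated replicate 3 was the lowest of the 12 pools. Neither stalk gene kept its groups apart in enriched rats: the log2 differences were 0.019 for Rplp0 and 0.021 for Rpl12. Rplp1 and Rplp2, the dimers themselves, had no single-symbol probe set and were not analysed here.

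In the small subunit Rps15, which sits in the head of the subunit close to where codons are read, had the smallest p of all members. Its signal was 925, 1030.1 and 925 in PBS_isolated and 1037, 1177 and 1207 in KA_isolated. The groups were separated by a narrow gap, and the log2 difference was 0.24 (SE 0.094, 95% interval 0.039 to 0.45, unadjusted p = 0.023, adjusted p = 0.999). In enriched rats it was 1076.5, 1047 and 1078 after PBS and 917, 947 and 1149.9 after KA, so there 2 of the 3 KA pools were below all PBS pools. Rps6, the substrate of the S6 kinases whose phosphorylation is read as mTOR activity, had 1811, 1818 and 1814 in PBS_isolated and 1879.7, 1971 and 1819.6 in KA_isolated. That gave a log2 difference of 0.058 (SE 0.076), in groups that just did not overlap.

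The 4 members that were lower after KA in isolated rats differed by less than their SE. Rpl4, whose loop lines the peptide exit tunnel, had a log2 difference of -0.054 (SE 0.071), from 1242, 1274 and 1248 to 1171, 1265 and 1189.9. Rpl5, which with Rpl11 and 5S rRNA forms the particle that can bind MDM2 and so raise p53, had -0.061 (SE 0.083). Its PBS_isolated pools were at 1881, 1914 and 2249 and its KA_isolated pools at 1926, 1947 and 1900.4, so PBS_isolated replicate 3 stood above the rest, and without it the difference was 0.020. Rpl11 was at 1203, 1282 and 1218 and then at 1292, 1325 and 1260.5, a log2 difference of 0.066 (SE 0.082). Rpl39, a small protein of the exit tunnel, had -0.059 (SE 0.087), from 144, 143 and 127 to 125, 141 and 131. Rpl41, the smallest ribosomal protein, at the contact between the subunits, had -0.012 (SE 0.085), from 1691, 1717 and 1628 to 1602, 1808 and 1591, and 0.0032 when the arrays were set to equal medians.

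**Figure D3:**
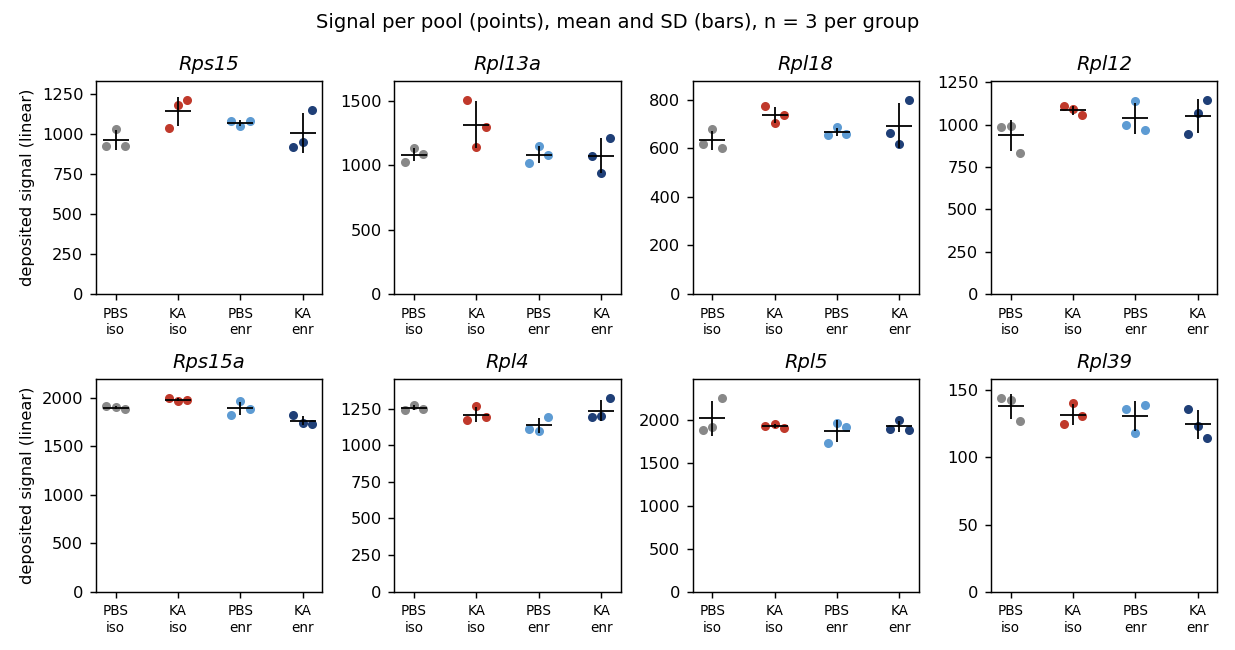
Deposited signal (vertical axis, linear, from 0) of 8 ribosomal protein genes in the 4 groups (horizontal axis); points are pools, bars the mean and SD of 3. The KA_isolated points of Rps15, Rpl13a, Rpl18 and Rpl12 lie above the PBS_isolated points, and the KA_enriched points of Rps15a lie below the points of each other group.

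Members with and without a tract were set side by side. In the KA comparison in isolated rats, 23 of 26 tested probe sets of genes with a tract near the start were higher, with a median of 0.075, and 9 of 10 of genes without one, with a median of 0.10. The genes without a RefSeq promoter, Rpl7, Rpl23a, Rpl27, Rpl30 and Rps29, are not in this count.

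In enriched rats the difference between KA and PBS was small and changed sign with the settings. Of the 41 members 28 were higher in KA_enriched than in PBS_enriched, against 48.7% of all tested probe sets, with a median log2 difference of 0.025 (-0.0033 over all) and a range from -0.15 to 0.17. Under quantile normalization 20 were higher, with a median of -0.0055, and without KA_enriched replicate 3, the array that stood apart, 19 were, with a median of -0.0083. With limma 0 members were called (lowest adjusted p 0.932), as were 0% of all probe sets. At an unadjusted p under 0.05 there were 0 members, against 4.98% of all. Groups did not overlap upward in 0 members, against 5% of all, and downward in 1, against 4.62%. Members that were higher after KA in both housings numbered 25 of 41, against 22.4% of all tested probe sets. That count follows in part from the 37 members higher in isolated and the 28 higher in enriched rats. Over the members the KA differences of the housings had a Pearson correlation of -0.33, against -0.042 over all tested probe sets.

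The member with separated groups in enriched rats was Rps15a, a protein of the small-subunit body. Its signal was 1829.5, 1968 and 1886 in PBS_enriched and 1820.1, 1744 and 1731 in KA_enriched, a log2 difference of -0.10 (SE 0.064, adjusted p = 0.932). All KA_enriched pools were below all PBS_enriched pools, the nearest 2 by a small margin. Rpl7 (probe set 1375788_at), a protein of the large subunit, had -0.15 (SE 0.11), Rps15 -0.093 (SE 0.094) and Rpl14, also of the large subunit, -0.087 (SE 0.086). Rps29, a small zinc-binding protein of the small subunit, had the largest positive difference, 0.17 (SE 0.12). It went from 3614, 3352 and 3661 to 4107, 4349 and 3551, with overlap. Rpl4 had 0.12 (SE 0.071), Rpl35, which lies at the mouth of the exit tunnel, 0.10 (SE 0.083) and Rps6 0.094 (SE 0.076).

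**Figure D4:**
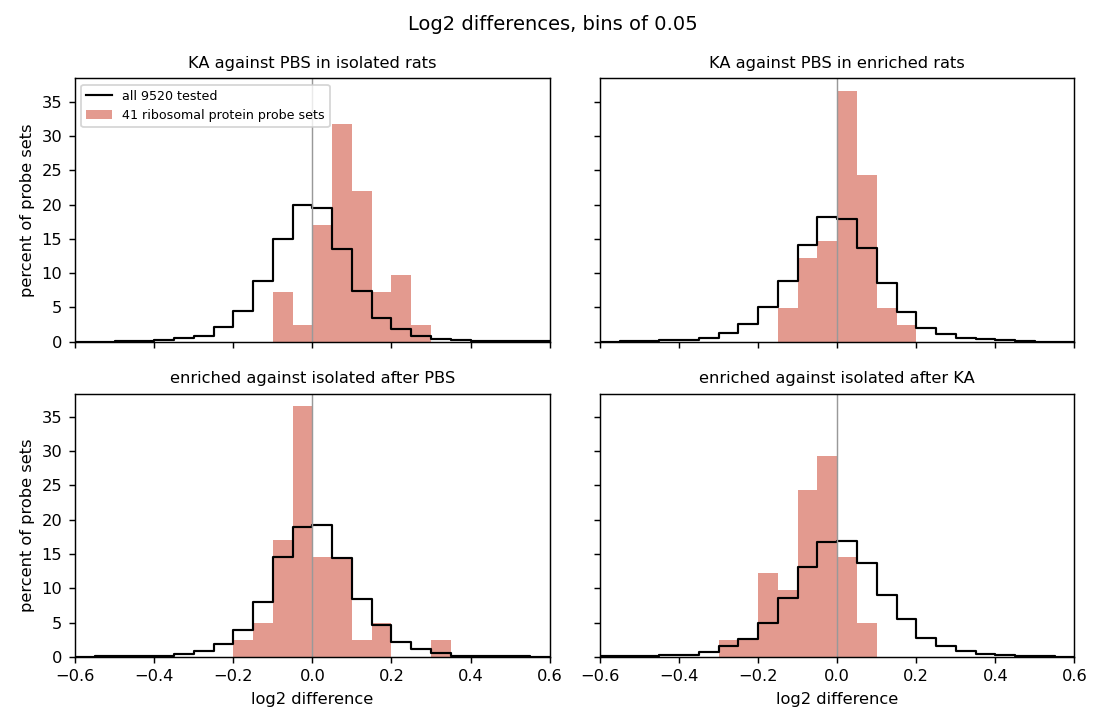
Share of probe sets (vertical axis, percent) by log2 difference (horizontal axis, bins of 0.05) in the 4 pairwise comparisons, for the 41 ribosomal protein probe sets (red) and all 9520 tested (black line). The red bars lie mostly right of 0 for KA against PBS in isolated rats (median 0.079) and mostly left of 0 for enriched against isolated after KA (median -0.053).

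Between housings, the KA-treated rats showed the opposite balance, in a comparison that uses the same KA_isolated pools. After KA 8 of the 41 members were higher in enriched than in isolated rats, against 51.1% of all tested probe sets. The median log2 difference was -0.053 (0.0030 over all) and the range -0.29 to 0.084. With limma 0 members were called (lowest adjusted p 0.659), as were 0% of all. At an unadjusted p under 0.05 there were 2, both lower, against 7.02% of all. No member (0) did not overlap upward, against 6.28%, and 2 did not overlap downward, against 4.53%. Without KA_enriched replicate 1 the number higher was 17 and the median -0.029, and without KA_enriched replicate 3 the number was 7 and the median -0.10, with 8 members at an unadjusted p under 0.05, against 8.99% of all probe sets.

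Rps15a had the smallest p of that comparison. It was at 1999, 1974 and 1979 in KA_isolated, a tight group, and at 1820.1, 1744 and 1731 in KA_enriched, a log2 difference of -0.17 (SE 0.064, 95% interval -0.31 to -0.030, unadjusted p = 0.021, adjusted p = 0.659). Rpl13a, with the values given above, differed by -0.29 (SE 0.11, unadjusted p = 0.022, adjusted p = 0.659), with 1 KA_enriched pool above the lowest KA_isolated pool. Rpl11 had 1292, 1325 and 1260.5 in KA_isolated and 1218, 1045 and 1218 in KA_enriched, a log2 difference of -0.16 (SE 0.082), and its groups did not overlap. Rps15 differed by -0.18 (SE 0.094), with overlap. The members with the smallest p on the higher side were Rps3a, a protein of the small subunit, at 0.084 (SE 0.084), Rpl41 at 0.063 (SE 0.085), Rps6 at 0.040 (SE 0.076) and Rpl4 at 0.033 (SE 0.071).

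After PBS the members were divided between the housings. Of the 41 members 16 were higher in enriched rats, against 51% of all tested probe sets, with a median log2 difference of -0.011 (0.0026 over all) and a range from -0.16 to 0.31. Under quantile normalization 23 were higher, with a median of 0.013; without PBS_isolated replicate 2, and also without PBS_enriched replicate 1, 22 were. With limma 0 members were called (lowest adjusted p 0.998), against 0.0105% of all, and 2 had an unadjusted p under 0.05, both higher, against 4.21%. In 5 members all enriched pools were above all isolated pools (5.49% of all), and in 1 all were below (6.11%).

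That comparison held the largest difference of any member between a pair of groups. Rpl7, by probe set 1375788_at, was at 54.6, 66.3 and 46.1 in PBS_isolated and at 70.9, 72.3 and 74.5 in PBS_enriched. The enriched pools were all higher, by a log2 difference of 0.31 (SE 0.11, unadjusted p = 0.018, adjusted p = 0.998). The brighter Rpl7 probe set, 1398917_at, which the rule for naming takes as the gene's, had a difference of -0.046 (SE 0.081), so the pair disagreed in direction. They also disagreed in enriched rats after KA, at -0.15 and 0.074 (SE 0.081). Rpl14 was at 677, 703 and 718 in PBS_isolated and at 751, 871 and 796 in PBS_enriched, without overlap, a log2 difference of 0.20 (SE 0.086, unadjusted p = 0.039, adjusted p = 0.998). Rps15 (0.15, SE 0.094), Rpl23 (0.097, SE 0.087), which can also bind MDM2, and Rpl24 (0.097, SE 0.075) were the others whose enriched pools were all higher. Rpl12 (0.14, SE 0.096) overlapped.

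On the lower side after PBS, Rpl4 was at 1242, 1274 and 1248 in isolated and at 1111, 1100.4 and 1194 in enriched rats, a log2 difference of -0.14 (SE 0.071, adjusted p = 0.998). It was the member whose enriched pools were all lower. Rpl5 had -0.11 (SE 0.083), Rpl35 -0.094 (SE 0.083) and Rpl37a, a zinc-finger protein of the large subunit with the widest spread of all members, -0.16 (SE 0.15). Rpl37a ran from 1283 to 2266 over the 12 pools, with a median of 1669.8. Its highest pool was KA_isolated replicate 1 and its lowest PBS_enriched replicate 1.

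Taken over both housings, 38 of 41 members were higher after KA, against 47.9% of all tested probe sets, with a median log2 difference of 0.056 (-0.0034 over all). With limma 0 were called (lowest adjusted p 0.996; 0.0105% of all), and 0 had an unadjusted p under 0.05 (4.31% of all). Rpl35 had 0.12 (SE 0.059), Rpl18 0.13 (SE 0.065), Rpl12 0.12 (SE 0.068) and Rpl7l1, a paralog of Rpl7 that takes part in ribosome assembly, 0.15 (SE 0.086) by probe set 1372391_at and 0.044 (SE 0.056) by the brighter 1389013_at. The members below 0 were Rpl39 at -0.061 (SE 0.061), Rps15a at -0.020 (SE 0.045) and Rpl5 at -0.0096 (SE 0.059), and the last was 0.0036 with the arrays at equal medians. Taken over both treatments, 12 members were higher in enriched rats (51% of all), with a median of -0.025 (0.0021 over all); under quantile normalization 18 were, and with arrays weighted by quality 5. With limma 0 were called (lowest adjusted p 0.875; 0.021% of all) and 0 had an unadjusted p under 0.05 (5.64% of all). Rpl7 by 1375788_at (0.15, SE 0.081), Rpl14 (0.082, SE 0.061), Rpl22 (0.059, SE 0.061) and Rps3a (0.057, SE 0.060) were higher, and Rps15a (-0.087, SE 0.045), Rpl37a (-0.20, SE 0.11), Rpl35 (-0.11, SE 0.059) and Rpl13a (-0.14, SE 0.077) lower. By its brighter probe set, 1398917_at, Rpl7 was at -0.023 (SE 0.057), so its probe sets disagreed in direction.

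Whether the KA difference itself varied with housing was tested as the KA difference of enriched rats less that of isolated rats. Of the 41 members 9 were above 0, against 49.8% of all tested probe sets: 5 of 30 large-subunit and 4 of 11 small-subunit members. The median was -0.059 (-0.00062 over all). With limma 0 members were called (lowest adjusted p 0.951), as were 0% of all. An unadjusted p under 0.05 was seen in 1 member, Rps15, against 4.97% of all. Its KA difference was 0.24 in isolated and -0.093 in enriched rats, so the contrast was -0.34 (SE 0.13, 95% interval -0.62 to -0.048, unadjusted p = 0.026, adjusted p = 0.951). Rpl7 by 1375788_at had -0.31 (SE 0.16), Rpl13a -0.28 (SE 0.15) and Rpl14 -0.23 (SE 0.12). The brighter Rpl7 probe set, 1398917_at, was on the other side of 0, at 0.044 (SE 0.11). Above 0 were Rpl4 (0.18, SE 0.10), Rpl5 (0.10, SE 0.12), Rpl23a, a protein at the tunnel mouth that contacts the signal recognition particle (0.099, SE 0.12), and Rpl41 (0.096, SE 0.12). Without KA_enriched replicate 1 the number above 0 was 16 and the median -0.028, and without KA_enriched replicate 3 these were 11 and -0.11, with 6 members at an unadjusted p under 0.05, against 7.54% of all probe sets. That number was 0 without PBS_isolated replicate 1, PBS_isolated replicate 3 or KA_enriched replicate 1, against 5%, 5.15% and 5.92% of all.

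**Figure D5:**
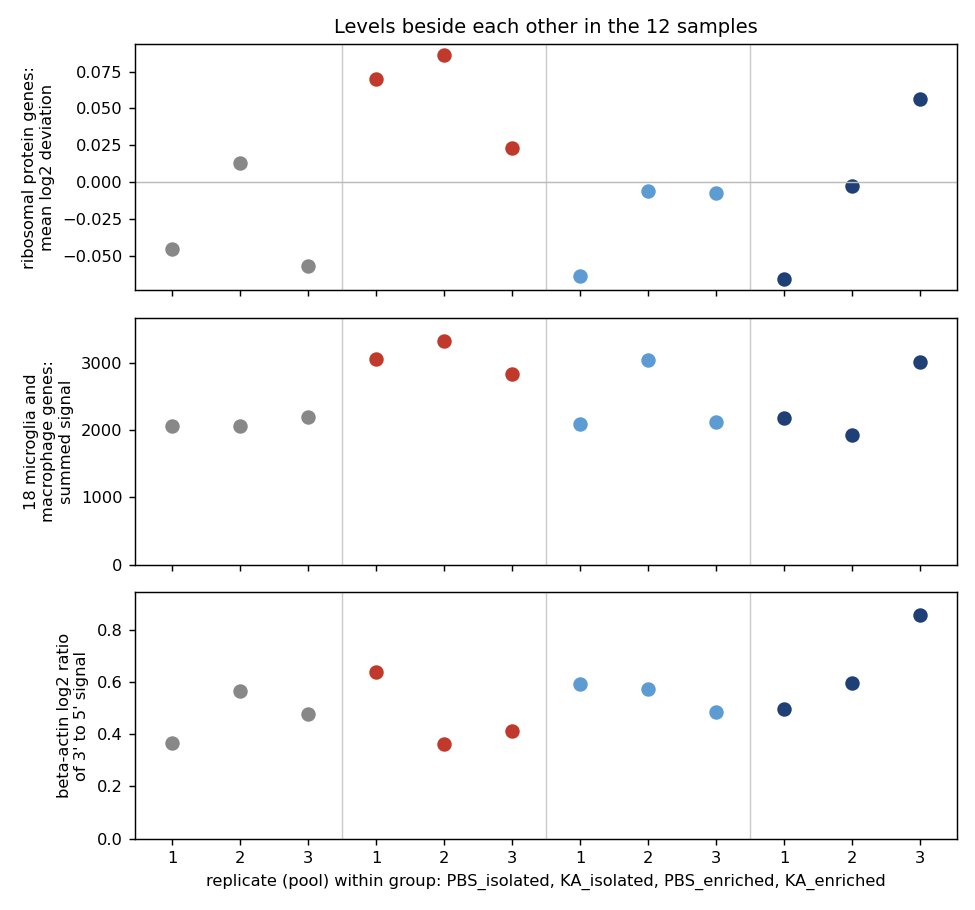
Mean log2 deviation of the 41 ribosomal protein probe sets (top), summed signal of 18 microglia and macrophage genes (middle, linear) and beta-actin log2 ratio of 3′ to 5′ signal (bottom) in each of the 12 pools (horizontal axis, by group). KA_isolated replicates 1 and 2 and KA_enriched replicate 3 are high in the top and middle panels, and the last is also the highest in the bottom panel (0.856). KA_isolated replicate 3 is high in the middle panel, but at 0.023 in the top panel it lies near PBS_isolated replicate 2 (0.013). PBS_enriched replicate 2 is high in the middle panel only.

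Marker lists of other cells were read in the same pools. All 18 measured genes of the microglia and macrophage list were higher in KA_isolated than in PBS_isolated, with 0 of them at 0 and 4 (Itgam, Cd68, Fcgr2b and Ptprc) below the filter. Of the 14 tested genes of this list, 0 passed and 10 had an unadjusted p under 0.05, against 4.31% of all tested probe sets. The summed signal of the 18 genes was 2059 to 2198 in PBS_isolated and 2829 to 3328 in KA_isolated. It was 2088, 3042 and 2124 in the PBS_enriched pools, where the ribosomal protein mean was -0.064, -0.0059 and -0.0073, and 2185, 1932 and 3017 in the KA_enriched pools, where it was -0.066, -0.0030 and 0.056. The 8 astrocyte markers summed to 11173 to 12127 in PBS_isolated, 12200 to 12847 in KA_isolated, 11027 to 11918 in PBS_enriched and 11323 to 12962 in KA_enriched. Such sums weigh the brightest markers most. Of the 8, 5 were higher in KA_isolated than in PBS_isolated (median log2 difference 0.049), and Aldoc, Aldh1l1 and Slc1a2 were lower. The 10 hippocampal neuron markers were all above the filter and summed to between 8891 and 10174 over the 12 pools. Single markers differed in direction: 6 of the 10 were higher in KA_isolated than in PBS_isolated (median log2 difference 0.013). Of the 10, 1 had an unadjusted p under 0.05 there with limma, against 4.31% of all tested probe sets. The choroid plexus markers summed to 3561 in PBS_isolated replicate 1 and to between 654 and 1411 in the others. The part of these cells in the ribosomal protein differences was not tested.

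The members also varied together from pool to pool. Over the 12 pools the mean pairwise Pearson correlation between members was 0.25, against 0.000525 between all tested probe sets, and 0.18 against 0.000395 for the deviations from the group means. The members of a pool share its array and its scaling, so these are descriptions. The members most like the mean of the others over the 12 pools were Rpl34 (r = 0.86), Rpl3 (0.75), which reaches to the peptide-bond centre, Rpl35 (0.75), Rpl18 (0.74) and Rpl26 (0.73). Rpl5 (-0.061) and Rpl39 (-0.30) were the least like it. Rpl34 was at 1213, 1329.5 and 1305 in PBS_isolated and at 1404, 1364 and 1345 in KA_isolated, without overlap. In the enriched pools it was at 1246, 1340.2 and 1303 after PBS and at 1247, 1308 and 1407 after KA.

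The 6 members below the filter were close to the background of the array and were not tested. Rps27l, a p53-inducible paralog of Rps27, had a lowest signal of 17.3, a median of 24.5 and a highest of 35.6 over the 12 pools. Rpl3l, the heart and muscle paralog of Rpl3, ran from 1.89 to 11.9 with a median of 2.64, and Rps4y2, a paralog of Rps4, from 8.87 to 17.7. The Rpl30 probe set ran from 9.36 to 24.8. The second probe sets of Rpl14 (2.78 to 21.2) and Rps24 (15.5 to 23.6) were dim although the first ones were bright, so a dim probe set here does not give the gene's level. Ribosomal protein genes have many processed pseudogenes, and whether a probe set also binds their transcripts was not tested.

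The rest of the translation machinery was read from 5 lists, each gene by its brightest probe set, and 0 genes of these lists were called in any of the 7 contrasts. At an unadjusted p under 0.05 there were 2 of 33 initiation factors and 2 of 33 assembly genes in the first of them, against 4.31% of all tested probe sets. For KA against PBS in isolated rats, both measured ribosomal proteins named outside the rule were higher: Rack1, the signalling scaffold on the small subunit, by a log2 difference of 0.11 (SE 0.074), and Rpsa, the laminin-receptor protein of the small subunit, by 0.076 (SE 0.095). Of the elongation and release factors 10 of 11 were higher (median 0.046), among them Eef1g (0.091, SE 0.070) and Eef1b2 (0.086, SE 0.077), subunits of the complex that recharges eEF1A. Of the initiation factors 16 of 33 were higher (median -0.0031). Eif2s3, a subunit of the factor that brings in the initiator tRNA, had -0.41 (SE 0.12, unadjusted p = 0.0051, adjusted p = 0.953), and Eif2b5, of its exchange factor, -0.16 (SE 0.073).

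In that same comparison 21 of 33 ribosome assembly and rRNA processing genes were higher (median 0.036). Polr1c, shared by RNA polymerases I and III, had -0.27 (SE 0.092) and Dkc1, the pseudouridine synthase of rRNA, 0.25 (SE 0.10). Of the mTOR and S6 kinase genes 8 of 18 were higher (median -0.020), with Rps6kc1, an S6 kinase relative, at 0.27 (SE 0.13) and Larp1, which binds the terminal oligopyrimidine messenger RNAs, at -0.14 (SE 0.099). In enriched rats after KA 4 of 11 elongation and release factors (median -0.039), 12 of 33 initiation factors (-0.026), 19 of 33 assembly genes (0.037) and 12 of 18 mTOR and S6 kinase genes (0.052) were higher. There Eif2s1 (-0.18, SE 0.066) and Eif2s3 (-0.30, SE 0.12) of the initiator tRNA factor, Polr1a, the large subunit of RNA polymerase I (0.25, SE 0.096), Rptor, the mTOR complex scaffold (-0.24, SE 0.092), and Eif4ebp2, a repressor of cap binding in neurons (0.52, SE 0.21), had the smallest p of their lists. Of the elongation and release factors it was Eef2, which moves the ribosome along the messenger RNA, at 0.14 (SE 0.065, unadjusted p = 0.044, adjusted p = 0.932), on the other side of 0 from its list's median.

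For housing after PBS, 18 of 33 initiation factors, 7 of 11 elongation and release factors, 18 of 33 assembly genes and 5 of 18 mTOR and S6 kinase genes were higher in enriched rats. After KA the counts were 13, 2, 11 and 10 in that order. Eif2b1, a subunit of the exchange factor of initiation, was higher in both, by 0.24 (SE 0.079, adjusted p = 0.998) after PBS and 0.23 (SE 0.079, adjusted p = 0.63) after KA. For the KA difference of enriched less that of isolated rats, Polr1c had 0.41 (SE 0.13, adjusted p = 0.91) and Rps6kc1 -0.52 (SE 0.18, adjusted p = 0.919).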

How the data were processed

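Total RNA of 12 hippocampal pools was measured on single-colour oligonucleotide arrays. The authors deposited probe set signals, a linear intensity, and the way probes were summarised is one detail not given in the sources used here. Every array has the same trimmed mean (150.0 with 2% removed at each end), which shows prior scaling, and the deposited intensity was taken unchanged. Precision is limited by the number of arrays. Without the 57 control probe sets, signals were transformed to log2(signal + 17), 17 being the 20th percentile, and the 60% with the highest mean were tested. Fold changes of dim probe sets are understated on this scale.

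Gene names came from the annotation table given with the array: 12789 probe sets had 1 symbol, 312 several, and 2822 were not listed. A RefSeq table changed 0 member symbols. One mean per group was fitted with limma 3.58.1 (R 4.3.3; lmFit, eBayes, 13.1 degrees of freedom), with 7 contrasts, two-sided p-values and Benjamini-Hochberg adjustment over all 9520 probe sets at 0.05. The steps were tested on simulated data. SE is limma's, SD is between pools.

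Named are, per contrast, the 4 higher and 4 lower members of smallest p, 6 members fixed by name that were measured (Rps6, Rplp0, Rpl13a, Rpl5, Rpl11 and Rpl22), members with separated groups, and up to 2 genes per list by p. The members and lists were chosen with earlier results of these data known. Alternatives covered the filter, pseudocount, scaling, variance model, array weights, samples fitted, replicate block, beta-actin ratio, probe sets per gene and leaving out each pool.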

Additional observations from a re-analysis of the deposited data

How the results depend on the processing

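No member was called (0) under any of the 179 alternatives fitted over the 7 contrasts. The median of the members moved by less than the spread between replicates (0.043, log2) in 176 of 179 alternatives. That spread exceeds the medians of KA in enriched rats (0.025) and of housing after PBS (-0.011), so a change of sign there did not count as moved. These medians ran from -0.0083 to 0.065 and from -0.030 to 0.013. The shares of members were judged by their ratio to the main share instead, and counted as kept in 214 cases and as moved in 7. The values of named members kept their sign in 1384 cases and changed it in 14. For KA against PBS in isolated rats 80.5% to 92.8% of members were higher, with medians from 0.051 to 0.10.

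With array weights the median for enriched against isolated after KA was -0.096, with 12.2% of members higher, the mean housing share was also 12.2%, Rps6 after KA was -0.018 and Rpl5 in the mean KA contrast 0.0069. With equal array medians the mean housing share was 17.1%, Rpl41 after KA in isolated rats 0.0032 and Rpl5 in the mean KA contrast 0.0036. With quantile normalization 19.5% of members had KA_isolated above PBS_isolated without overlap.

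Leaving out each pool in turn, that share ran from 36.6% to 56.1%, and that of all tested probe sets from 5.19% to 10.6%. The median for enriched against isolated after KA ran from -0.10 to -0.029 and the share higher from 17.1% to 41.5%, and for the difference of the KA effects from -0.11 to -0.028 and from 22.0% to 39.02%. Rpl5 ran from -0.11 to 0.020 and Rpl41 from -0.072 to 0.020 for KA in isolated rats, and Rpl5 from -0.037 to 0.031 in the mean KA contrast. For housing after KA, Rpl41 ran from -0.011 to 0.12, Rps6 from -0.0061 to 0.11 and Rpl4 from -0.015 to 0.066. The cause was not tested.

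Same-numbered pools correlated between -0.072 and 0.20 in their deviations from the group means, over 0.1 in 2 of 18 pairs, so the numbers were not taken as pairs. With the replicate block 0 members were called and the lowest adjusted p for KA in isolated rats was 0.999 (median 0.079). An added alternative, chosen after seeing the data, counted probe sets with several symbols of the family as members, and 64 of 69 were higher after KA in isolated rats. Differences near 0.1 on the log2 scale are close to the SE of a member at 3 pools per group (median 0.083).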
